A study of Saccharomyces cerevisiae with 8 samples.

Results

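Domain III of 25S rRNA is the part of the large subunit RNA that lies near the exit of the polypeptide tunnel. The data hold no structural positions, so this placement is background and was not checked here. The domain was taken by position, as nucleotides 1455 to 1878 of 25S rRNA. These are 424 of the 3396 nucleotides of 25S rRNA, or 12.5%, and of the 10000 positions of the rDNA template in the deposited data. On the R64 genome, in the rDNA repeat annotated first, they correspond to 453304 to 453727 on the reverse strand of chromosome XII, inside the RDN25-1 gene, an RNA gene with no coding exons. Within the domain, 2 stretches were looked at nucleotide by nucleotide. The first, of 31 nucleotides (chromosome XII, 453602 to 453632), holds the sites A1558, A1559, U1568 and A1571 of expansion segment ES19 and is called the ES19 stretch here. The other, of 21 nucleotides (chromosome XII, 453407 to 453427), surrounds U1764.

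The study probed the rRNA around 3 ribosomal proteins in precursors of the yeast large ribosomal subunit (LSU). Each MNase strain expressed rpL5, rpL27 or rpL35 in fusion with micrococcal nuclease (MNase) and an HA tag, from a plasmid with RPS28 promoter sequences, as the only source of that protein. The late 25S-preLSUs were purified through TAP-tagged Lsg1 from 2 litres of culture, and the earlier 27SB-preLSUs through TAP-tagged Noc3 from 6 litres. All strains were of the S288c background, and those without MNase carried the TAP tag and unchanged ribosomal protein genes. Thus 6 libraries came from MNase strains and 2 from strains without MNase, with 1 library per condition, so that no value has a replicate and no difference was tested.

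Eukaryotic expansion segments such as ES19 are rRNA insertions that bacteria lack, and they cover much of the outer surface of the subunit. Domain III packs against domain I at the solvent side, where rpL35 sits at the rim of the peptide tunnel exit and rpL27 contacts domain III, whereas rpL5 is part of the 5S rRNA particle at the distant central protuberance. Noc3 belongs to nuclear precursors, and Lsg1 is a cytoplasmic GTPase that acts in late subunit maturation. MNase is silent until calcium is added. It then cuts accessible, mostly single stranded RNA within the reach of the tethered enzyme, and reverse transcriptase stops at the new 5′ end.

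Each value is a TCR (termination to coverage ratio), the share of the unique cDNA fragments over a nucleotide that end at it, given here in percent. Where a TCR over 3 nucleotides is given, it is the probability of a stop at the named nucleotide or either direct neighbour. The deposited noise estimate of a position gives the size that chance stops may reach. In domain III the 25S-preLSUs had a median of 1.14% and the 27SB-preLSUs one of 1.20%, against 0.859% and 1.05% in the rest of 25S rRNA. The values carry no coverage, so the depth behind them is unknown. Between 93 and 143 of the 424 nucleotides were listed at 0 in the libraries of 25S-preLSUs, and between 109 and 156 in those of 27SB-preLSUs.

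Cleavage in domain III was concentrated in a few nucleotides of ES19 and in a few around U1764. To call a site, the TCR over 3 nucleotides had to be 15% or more and to exceed both the noise and the value without MNase by more than 5 times, and passing positions within 2 nucleotides were joined. In 25S-preLSUs, MNase-rpL5 and MNase-rpL27 each gave 2 sites, at A1559 and U1568, and MNase-rpL35 gave 3, at A1559, U1568 and nucleotide 1763. In 27SB-preLSUs, MNase-rpL5 and MNase-rpL27 each gave 1 site, at A1559, and MNase-rpL35 gave 3, at A1559, at nucleotide 1569 and at U1764. A1559 was thus the site shared by all 6 MNase libraries at this minimum, and the stretch around U1764 held sites of MNase-rpL35 only. In 25S-preLSUs both sites of MNase-rpL5, at 15.6% and 15.9%, and A1559 with MNase-rpL27 and MNase-rpL35, at 15.1% and 17.5%, lay close to the minimum. With a minimum of 20%, A1559 was called in no library of 25S-preLSUs and in all 3 MNase libraries of 27SB-preLSUs. Close to the limit of 5 times the library without MNase were nucleotide 1569 with MNase-rpL35 in 27SB-preLSUs, at 6.05, and U1568 with MNase-rpL5 in 25S-preLSUs, at 5.92.

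**Figure D1:**
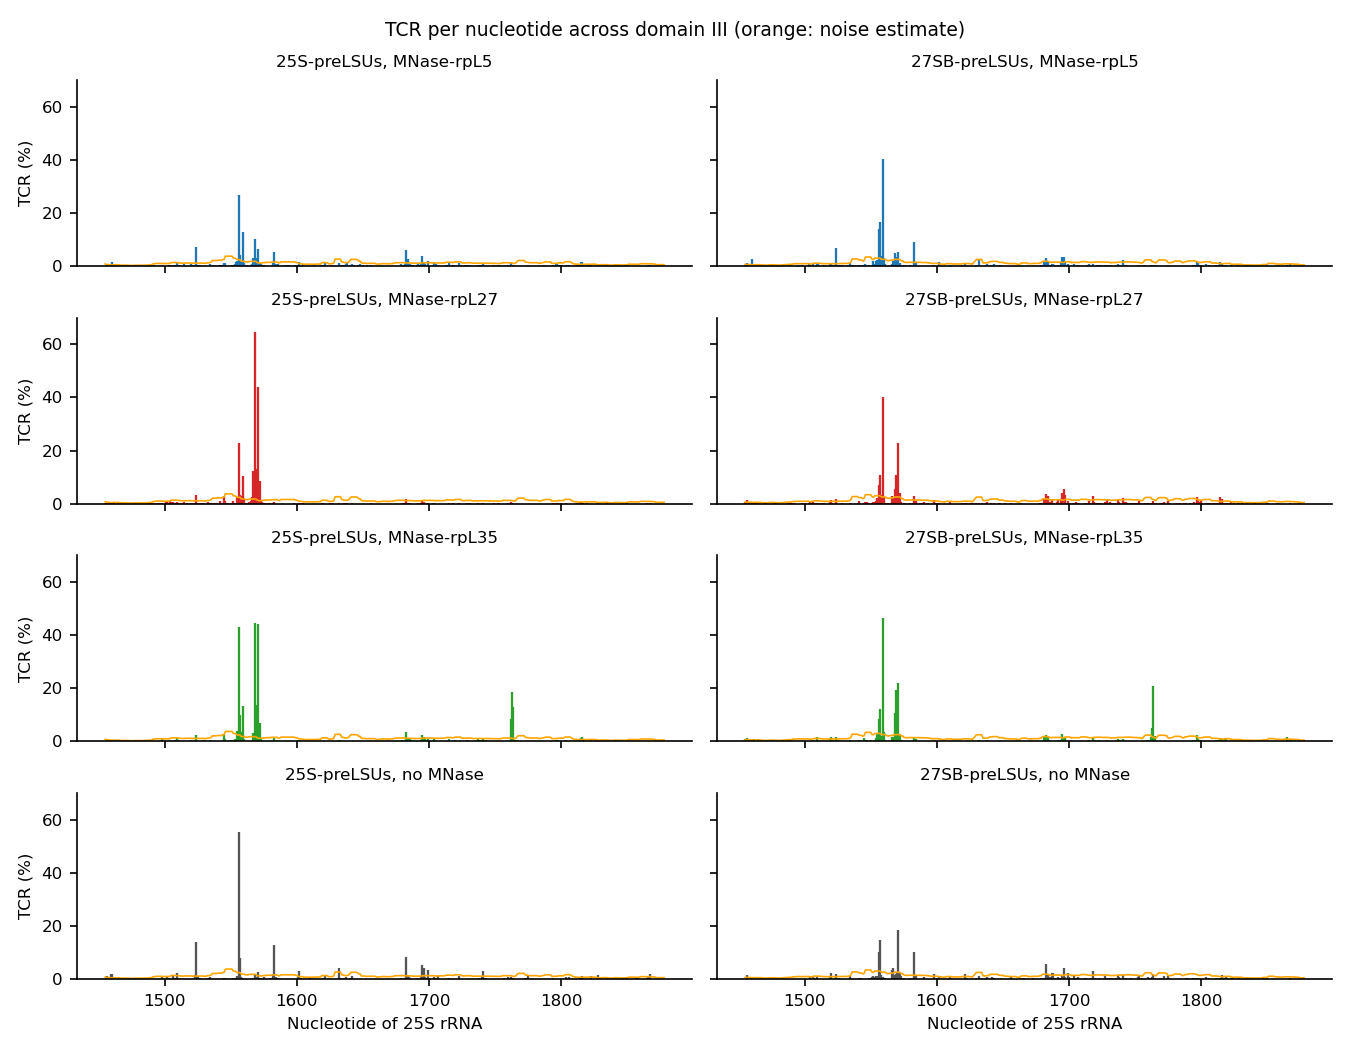
TCR in percent at each of the 424 nucleotides of domain III (x axis, nucleotide number of 25S rRNA), with 25S-preLSUs left, 27SB-preLSUs right, 1 row per library and the noise estimate as an orange line. The tall lines stand in the ES19 stretch in all 8 panels, and near U1764 only in both MNase-rpL35 panels.

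The called positions can be read against the whole of 25S rRNA, where 3373 windows of 3 nucleotides were examined. In 25S-preLSUs, MNase-rpL5 passed at 2 of the domain's windows (0.472%) and at 0.326% of all windows, and MNase-rpL27 at 8 (1.89%) and at 0.771% of all. MNase-rpL35 passed at 10 (2.36%) there, against 0.563% of all windows. The share in the domain was thus above that of all windows, which include the domain, for MNase-rpL27 and MNase-rpL35. For MNase-rpL5, with 2 windows, it was near that share. Neighbouring windows overlap and a broad site fills several of them, so these shares also follow the width of a site. By joined site, the domain held 2 of 5, 2 of 6 and 3 of 5 in 25S-preLSUs with MNase-rpL5, MNase-rpL27 and MNase-rpL35. In 27SB-preLSUs, MNase-rpL5 passed at 2 of the domain's windows (0.472%) and at 0.0889% of all, MNase-rpL27 at 2 (0.472%) and at 0.0593% of all, and MNase-rpL35 at 6 (1.42%) and at 0.237% of all. Of all windows of 25S rRNA that passed in 27SB-preLSUs, 2 of 3 with MNase-rpL5, 2 of 2 with MNase-rpL27 and 6 of 8 with MNase-rpL35 lay in domain III. By joined site these were 1 of 2, 1 of 1 and 3 of 4.

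Lowering the minimum to 5% added no new place in the domain. The passing windows then numbered 5, 10 and 13 in 25S-preLSUs with MNase-rpL5, MNase-rpL27 and MNase-rpL35. These were 1.18%, 2.36% and 3.07% of the domain, against 0.563%, 1.04% and 0.86% of all windows. In 27SB-preLSUs the passing windows numbered 2, 2 and 6, or 0.472%, 0.472% and 1.42% of the domain, against 0.237%, 0.148% and 0.326% of all. All windows that passed, at either minimum and in any library, were centred between A1559 and nucleotide 1573 or between 1762 and 1765.

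A1559 (chromosome XII, 453623) had stops with each of the 3 fusions, and they were called lower in 25S-preLSUs than in 27SB-preLSUs. In 25S-preLSUs its TCR at the single nucleotide was 12.7% for MNase-rpL5, 10.4% for MNase-rpL27 and 13.5% for MNase-rpL35, against 0.32% without MNase. In 27SB-preLSUs it was 40.3%, 39.98% and 46.4% with the same fusions, against 0.73% without MNase. The noise there reached 1.84% in 25S-preLSUs, against 2.58% in 27SB-preLSUs. Every MNase library thus stood far above both the noise and its library without MNase.

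The values at A1559 were similar with all 3 tethers. Over 3 nucleotides the fusions spanned 2.34 percentage points in 25S-preLSUs and 5.90 in 27SB-preLSUs, with MNase-rpL35 highest and MNase-rpL27 lowest in both. The ratio of 25S-preLSUs to 27SB-preLSUs was 0.354, 0.349 and 0.354 with MNase-rpL5, MNase-rpL27 and MNase-rpL35, and each was called lower in 25S-preLSUs, which required a change of more than 2 times that also exceeded the noise of either precursor. The library without MNase gave a ratio of 0.523, which was not called. The ratios of the 3 fusions were nearly equal, and none would be called if a change of more than 3 times were required.

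The neighbour A1558 (chromosome XII, 453624) held little of this signal. Its own TCR was 2.06%, 3.06% and 3.66% in 25S-preLSUs with MNase-rpL5, MNase-rpL27 and MNase-rpL35, against 0.83% without MNase. In 27SB-preLSUs it was 3.71%, 3.12% and 2.10% with these fusions, against 1.47% without MNase. At this single nucleotide the fusions did not share a direction between the precursors, and the difference between the precursors over 3 nucleotides at A1558 comes from A1559 and from nucleotide 1557.

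**Figure D2:**
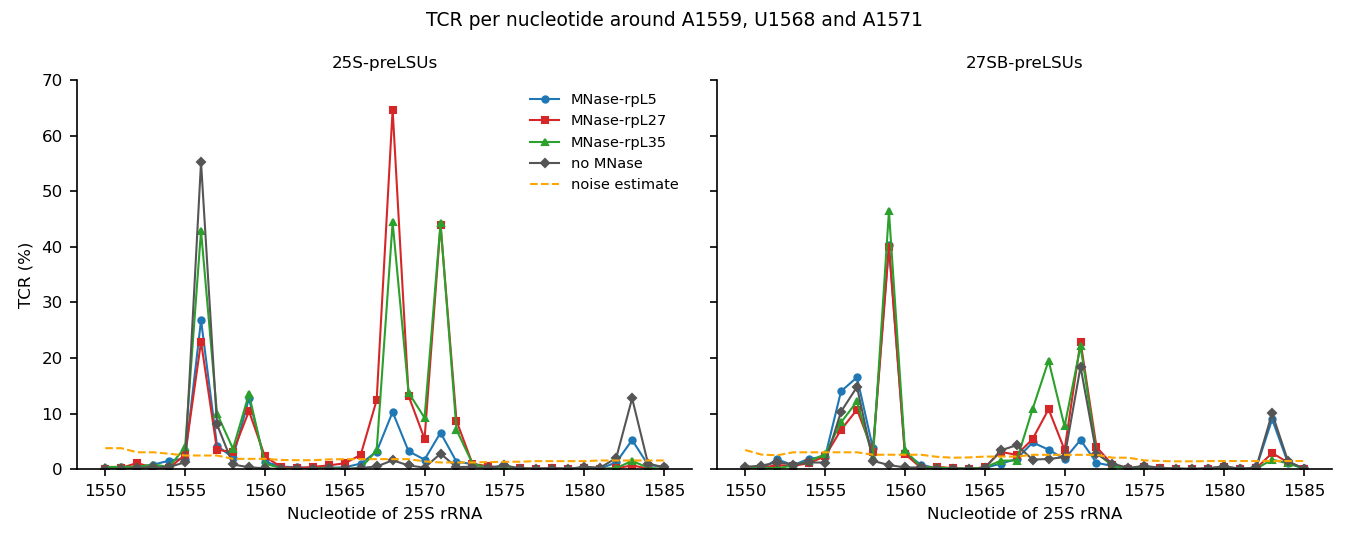
TCR in percent per nucleotide in the ES19 stretch and the 5 nucleotides beyond it (x axis, nucleotide number of 25S rRNA), with 25S-preLSUs left and 27SB-preLSUs right, 1 line per library and the noise estimate dashed. With MNase-rpL27 and MNase-rpL35 the highest nucleotide is U1568 in 25S-preLSUs, at 64.7% and 44.4%, and A1559 in 27SB-preLSUs, at 39.98% and 46.4%. With MNase-rpL35 in 25S-preLSUs, A1571 at 44.2% and nucleotide 1556 at 42.9% are nearly as high as U1568.

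U1568 (chromosome XII, 453614) had the highest TCR of the domain in 25S-preLSUs with MNase-rpL27 and MNase-rpL35. With MNase-rpL35, A1571 at 44.2% and nucleotide 1556 at 42.9% were nearly as high, within the noise. The single nucleotide TCR of U1568 in 25S-preLSUs was 10.3% for MNase-rpL5, 64.7% for MNase-rpL27 and 44.4% for MNase-rpL35. Without MNase it was 1.58%, beside a noise of 1.79%. In 27SB-preLSUs it was 4.79%, 5.42% and 10.8% with the same fusions, against 1.72% without MNase and a noise of 2.56%. Over 3 nucleotides, the ratio of 25S-preLSUs to 27SB-preLSUs at U1568 was 1.63, 4.12 and 1.83 with MNase-rpL5, MNase-rpL27 and MNase-rpL35. Of the fusions only MNase-rpL27 was called, as higher in 25S-preLSUs. Without MNase the ratio was 0.351, called lower. The order of the fusions was not shared. MNase-rpL27 led in 25S-preLSUs, whereas MNase-rpL35 led in 27SB-preLSUs, in which MNase-rpL5 and MNase-rpL27 differed by less than the noise.

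The nucleotides on either side of U1568 behaved differently from each other. Nucleotide 1567 had 12.4% in 25S-preLSUs with MNase-rpL27, beside 3.15% for MNase-rpL5, 3.35% for MNase-rpL35 and 0.47% in the library without MNase. In 27SB-preLSUs nucleotide 1567 had 1.80%, 2.55% and 1.54% with MNase-rpL5, MNase-rpL27 and MNase-rpL35, all below the 4.30% without MNase. Nucleotide 1569, on the other side, had 3.20%, 13.2% and 13.8% in 25S-preLSUs with these fusions against 0.66% without MNase, and 3.50%, 10.8% and 19.5% in 27SB-preLSUs against 1.81%. The upstream neighbour therefore carried MNase signal in 25S-preLSUs alone, and the downstream neighbour carried it in both.

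The position of the highest stop followed these neighbours. Among nucleotides 1567 to 1569 alone, the highest was U1568 in all 3 MNase libraries of 25S-preLSUs. In 27SB-preLSUs it was nucleotide 1569 with MNase-rpL27 and MNase-rpL35 and U1568 with MNase-rpL5. Weighted by TCR over nucleotides 1567 to 1569, the mean position relative to U1568 was 0.008 nucleotides in 25S-preLSUs and 0.439 in 27SB-preLSUs with MNase-rpL27, and 0.169 and 0.564 with MNase-rpL35. Without MNase it was 0.070 in 25S-preLSUs, against -0.317 in 27SB-preLSUs. The value of 25S-preLSUs without MNase rests on stops under the noise, so this pair cannot be set against those of the fusions. These mean positions were computed after the values had been seen.

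At nucleotide 1566, over 3 nucleotides, MNase-rpL27 had 15.5% in 25S-preLSUs and was 3.52 times the next fusion, the only window of the ES19 stretch at which a single fusion led by more than 2 times while passing 5 times the noise and the library without MNase. Nucleotide 1566 itself had 2.55% in this library, so most of the window came from nucleotide 1567. Nucleotide 1570 lies between the cleaved U1568 and A1571. Its TCR in 25S-preLSUs was 1.71%, 5.44% and 9.22% with MNase-rpL5, MNase-rpL27 and MNase-rpL35, against 0.26% without MNase. With MNase-rpL27 and MNase-rpL35 it was a low point between the peaks at U1568 and A1571, although the passing windows of both peaks were joined into 1 site.

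A1571 (chromosome XII, 453611) had 6.54% for MNase-rpL5, 43.9% for MNase-rpL27 and 44.2% for MNase-rpL35 in 25S-preLSUs, against 2.77% without MNase. In 27SB-preLSUs it had 5.24%, 22.9% and 22.1% with the same fusions, against 18.4% without MNase. MNase-rpL27 and MNase-rpL35 were close to each other in both precursors. In 27SB-preLSUs they were little above the library without MNase, at 1.25 and 1.20 times its value, whereas MNase-rpL5 was at 0.285 times it.

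The stop without MNase at A1571 in 27SB-preLSUs limits what can be read from that nucleotide. In 25S-preLSUs the 2.77% without MNase stood beside a noise of 1.19%, and in 27SB-preLSUs the 18.4% stood beside a noise of 2.56%. No fusion exceeded the library without MNase by 5 times, so that no site was called there in 27SB-preLSUs, and the differences over 3 nucleotides, at ratios of 1.17, 1.81 and 1.75 with MNase-rpL5, MNase-rpL27 and MNase-rpL35, did not reach 2. After correction for the library without MNase these differences grew to 24.6, 41.9 and 41.2 percentage points, higher in 25S-preLSUs, and were called, with the corrected value of MNase-rpL5 in 27SB-preLSUs below 0, at -18.4%. The share of stops at A1571 made by MNase in 27SB-preLSUs and the share present without it cannot be told apart from these libraries. The next nucleotide, 1572, had 1.32%, 8.69% and 7.06% in 25S-preLSUs with the fusions, against 0.36% without MNase, and 1.14%, 3.97% and 2.92% in 27SB-preLSUs, against 2.72%.

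The balance between the 2 ends of the ES19 stretch turned round between the precursors for MNase-rpL27 and MNase-rpL35. Over 3 nucleotides the ratio of U1568 to A1559 with MNase-rpL27 was 4.83 in 25S-preLSUs against 0.409 in 27SB-preLSUs, and with MNase-rpL35 it was 3.07 against 0.595. With MNase-rpL5 the ratio was 1.01 in 25S-preLSUs, against 0.221 in 27SB-preLSUs. All 3 fusions thus had relatively more stops at A1559 in the early precursor. Without MNase the ratio was 2.07 in the late precursor, against 3.09 in the early one. These libraries were under the noise at A1559, but their U1568 window in 27SB-preLSUs held 7.64%, beside a noise of 2.56%. MNase-rpL5, MNase-rpL27 and MNase-rpL35 stood at 1.28, 2.32 and 3.84 times that window. How much of their U1568 signal in the early precursor was made by MNase was not tested. The ratio of U1568 to A1559, too, was formed after the values had been seen.

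**Figure D3:**
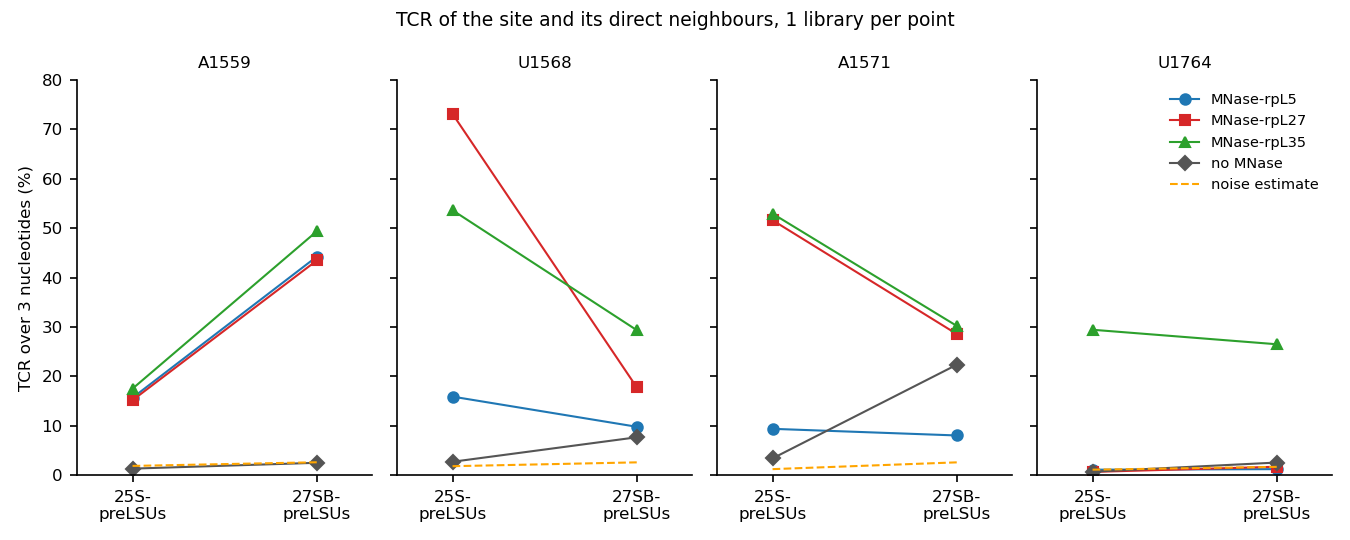
TCR in percent over the named nucleotide and its direct neighbours (y axis) in 25S-preLSUs, left in each panel, and 27SB-preLSUs, right, with 1 point per library, lines joining the same fusion and the noise estimate dashed. At A1559 the fusions lie between 15.1% and 17.5% in 25S-preLSUs and between 43.4% and 49.4% in 27SB-preLSUs, and at U1764 MNase-rpL35 lies at 29.4% and 26.5%, far above the remaining libraries.

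Cleavage around U1764 (chromosome XII, 453418) was called with the tether at the tunnel exit protein rpL35 and with neither of the other tethers. In 25S-preLSUs with MNase-rpL35, the TCR was 8.37% at nucleotide 1762, 18.6% at nucleotide 1763, 12.9% at U1764 and 0.46% at nucleotide 1765. In 27SB-preLSUs the same 4 nucleotides had 1.54%, 5.08%, 20.9% and 2.06%. The highest stop was therefore at 1763 in the late precursor and at U1764 in the early one. The noise at U1764 reached 1.08% in 25S-preLSUs, against 1.65% in 27SB-preLSUs.

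The remaining libraries stayed near or under the noise there. At U1764, 25S-preLSUs had 0.51% with MNase-rpL5 and 0.24% with MNase-rpL27, against 0.31% without MNase, and 27SB-preLSUs had 0.59% and 1.23% with these fusions, against 1.35% without MNase. Over 3 nucleotides, MNase-rpL35 was 27.3 times the next fusion in 25S-preLSUs and 15.8 times in 27SB-preLSUs. It was preferred, that is over 2 times the next fusion and past 5 times the noise and the library without MNase, at the windows of 1762 to 1765 in 25S-preLSUs and of 1763 to 1765 in 27SB-preLSUs. Across all windows of 25S rRNA such a preference was found at 0.148%, 0.326% and 0.119% in 25S-preLSUs for MNase-rpL5, MNase-rpL27 and MNase-rpL35, and at 0.119%, 0.0889% and 0.178% in 27SB-preLSUs. MNase-rpL5 was preferred at no window of domain III, and MNase-rpL27 at the single window of 1566 in 25S-preLSUs.

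**Figure D4:**
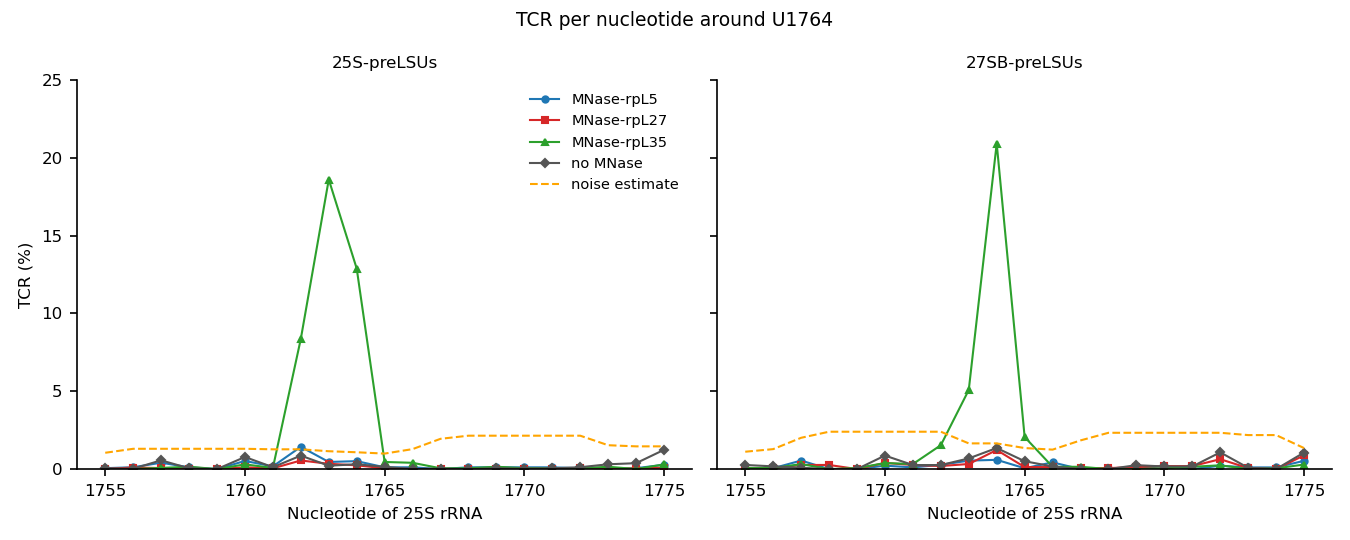
TCR in percent per nucleotide in the 21 nucleotides around U1764, with 25S-preLSUs left and 27SB-preLSUs right, 1 line per library and the noise estimate dashed. MNase-rpL35 peaks at nucleotide 1763 with 18.6% in 25S-preLSUs and at U1764 with 20.9% in 27SB-preLSUs, and the other libraries stay near or under the noise.

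The TCR over 3 nucleotides with MNase-rpL35 at U1764 differed little between the precursors, although the highest nucleotide was not the same. Over 3 nucleotides U1764 had a ratio of 1.11 between 25S-preLSUs and 27SB-preLSUs, and nucleotide 1763 a ratio of 1.34, and neither difference was called. The window of nucleotide 1762 was 3.72 times higher in 25S-preLSUs, 25.5% there against 6.84% in 27SB-preLSUs, and was called. The mean position over nucleotides 1762 to 1766, weighted by TCR and computed after the values had been seen, was -0.837 nucleotides from U1764 in 25S-preLSUs, against -0.195 in 27SB-preLSUs. The same quantity without MNase was -1.17 in 25S-preLSUs, against -0.122 in 27SB-preLSUs, but it rests on values under the noise and cannot be set against that of MNase-rpL35.

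Domain III was compared between the precursors window by window as well. A window was called higher in 25S-preLSUs in 1 of 424 cases with MNase-rpL5 (0.236%, and 2.22% over all of 25S rRNA), in 9 with MNase-rpL27 (2.12%, and 3.74%) and in 8 with MNase-rpL35 (1.89%, and 7.23%). It was called lower in 9 cases with MNase-rpL5 (2.12%, and 4.27%), in 50 with MNase-rpL27 (11.8%, and 10.9%) and in 33 with MNase-rpL35 (7.78%, and 3.88%). The libraries without MNase, compared by the same rule, gave 24 higher (5.66%, and 8.51%) and 34 lower windows (8.02%, and 6.88%). The domain was thus changed in fewer windows than 25S rRNA as a whole in the higher direction. In the lower direction its share was near that of 25S rRNA with MNase-rpL27 and without MNase, below it with MNase-rpL5 and above it with MNase-rpL35. Of the windows higher in 25S-preLSUs, 6 of 9 with MNase-rpL27 and 7 of 8 with MNase-rpL35 lay in the 2 stretches, and of the lower ones 3 of 50 and 5 of 33. With MNase-rpL5 these were 0 of 1 higher and 3 of 9 lower windows, and without MNase 3 of 24 and 11 of 34. The stretches hold 31 and 21 of the 424 nucleotides.

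Stops that need no MNase make up the background of the domain. In 25S-preLSUs, 6 nucleotides had a TCR of at least 5% and above the noise without MNase, at 1524, 1556, 1557, 1583, 1683 and 1695. In 27SB-preLSUs there were 5, at 1556, 1557, A1571, 1583 and 1683. Nucleotides 1683 and 1695 were named after their values had been seen. As these nucleotides were chosen for a high value without MNase, a lower value in the MNase libraries is given as a description only.

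The strongest stop without MNase in 25S-preLSUs was nucleotide 1556 (chromosome XII, 453626), 3 nucleotides from A1559, whereas in 27SB-preLSUs A1571 and nucleotide 1557 were stronger than it. In 25S-preLSUs its TCR was 26.8%, 22.9% and 42.9% with MNase-rpL5, MNase-rpL27 and MNase-rpL35, against 55.2% without MNase. In 27SB-preLSUs it was 14.0%, 7.06% and 8.39% with these fusions, against 10.3% without MNase. Nucleotide 1557 next to it had 4.21%, 3.48% and 10.0% in 25S-preLSUs, against 8.05% without MNase, and 16.5%, 10.7% and 12.2% in 27SB-preLSUs, against 14.8%. At this pair the fusions fell on both sides of the library without MNase and no site was called. At nucleotide 1556 alone the stop was several times stronger in 25S-preLSUs in the MNase-rpL27 and MNase-rpL35 libraries and without MNase, the direction opposite to that of A1559 with the fusions. In every library of 27SB-preLSUs, however, nucleotide 1557 was the higher of the pair. Over 3 nucleotides at 1556, the ratio of 25S-preLSUs to 27SB-preLSUs was 1.05, 1.45 and 2.33 with the fusions and 2.42 without MNase. Only the ratios of MNase-rpL35 and of the libraries without MNase were called.

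Nucleotide 1583 (chromosome XII, 453599), just beyond the ES19 stretch, was lower with each fusion than without MNase. It had 5.22%, 0.68% and 1.47% in 25S-preLSUs with MNase-rpL5, MNase-rpL27 and MNase-rpL35, against 12.7% without MNase, and 8.96%, 2.88% and 1.71% in 27SB-preLSUs, against 10.0%. MNase-rpL27 and MNase-rpL35 were below MNase-rpL5 in both precursors. Nucleotide 1524 (chromosome XII, 453658) had 7.37%, 3.19% and 2.45% in 25S-preLSUs with the fusions, against 14.1% without MNase. In 27SB-preLSUs nucleotide 1524 had 6.87% with MNase-rpL5, above the 1.83% without MNase, and 1.87% and 1.72% with MNase-rpL27 and MNase-rpL35.

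**Figure D5:**
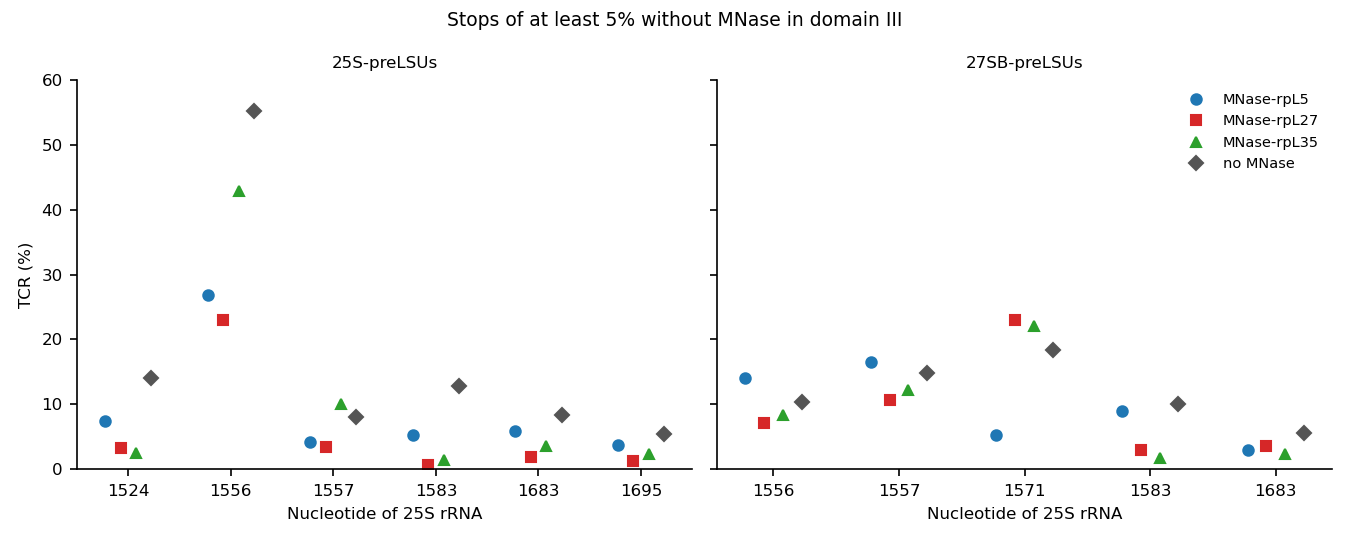
TCR in percent (y axis) at the nucleotides of domain III (x axis) with stops of at least 5% without MNase, with 25S-preLSUs left and 27SB-preLSUs right and 1 point per library. In 25S-preLSUs the library without MNase is the highest at 5 of 6 nucleotides, and in 27SB-preLSUs it is the highest at 2 of 5.

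Lower stops in MNase libraries were common in the whole of 25S rRNA. In 25S-preLSUs, 85.1%, 92.5% and 62.7% of the 67 stops without MNase in 25S rRNA had less than 50% of that value with MNase-rpL5, MNase-rpL27 and MNase-rpL35, and in the domain this held for 2, 6 and 4 of 6. In 27SB-preLSUs the shares were 55.1%, 10.2% and 53.1% of 49 stops, and in the domain 1, 1 and 2 of 5. These stops, too, were chosen for their value without MNase, so the shares are a description, and their part in the values of the domain was not tested.

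The mean TCR per nucleotide of the domain was above that without MNase in every MNase library, for MNase-rpL5 in 25S-preLSUs only narrowly, and most of the excess lay in the 2 stretches. The mean was 0.479%, 0.599% and 0.731% in 25S-preLSUs with MNase-rpL5, MNase-rpL27 and MNase-rpL35, against 0.473% without MNase. In 27SB-preLSUs it was 0.522%, 0.568% and 0.621% with the fusions, against 0.440% without MNase. The factor over the library without MNase was lowest for MNase-rpL5 in 25S-preLSUs, at 1.01, and with limits 50 nucleotides wider on either side this mean was below the one without MNase, at 0.484% against 0.499%. The factor was highest for MNase-rpL35 in 25S-preLSUs, at 1.55. In the rest of 25S rRNA that was examined, all 6 MNase libraries were below their library without MNase, at 0.629 to 0.986 times its mean.

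The ES19 stretch alone, 31 of 424 nucleotides, held 41.0%, 79.6% and 65.1% of the summed TCR of the domain in 25S-preLSUs with MNase-rpL5, MNase-rpL27 and MNase-rpL35, against 37.5% without MNase. In 27SB-preLSUs it held 48.2%, 51.4% and 55.8% with the fusions, against 37.8% without MNase. The stretch around U1764 held 13.6% in 25S-preLSUs, against 12.1% in 27SB-preLSUs, with MNase-rpL35, and 2.65% and 3.98% in these precursors without MNase. The ES19 stretch thus held most of the summed TCR of the domain with MNase-rpL27 and MNase-rpL35 in both precursors. These sums include stops present without MNase, such as those at 1556, 1557 and A1571, so they are not shares of cleavage.

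Outside both stretches, 372 nucleotides remained, and no site was called there. The median size of the difference between a fusion and the library without MNase lay between 0.0488 and 0.105 percentage points over the 6 MNase libraries, and its 95th percentile between 0.782 and 1.06 points. The largest negative differences were those of MNase-rpL27 at nucleotide 1583, -12.1 points, and of MNase-rpL35 at nucleotide 1524, -11.6 points, both in 25S-preLSUs. The largest positive difference was 2.59 points in 25S-preLSUs, at nucleotide 1545, which had 2.78% and 2.87% with MNase-rpL27 and MNase-rpL35, against 0.272% without MNase. Nucleotide 1545 was named after its values had been seen, and was not called. In 27SB-preLSUs the largest positive difference was that of MNase-rpL5 at nucleotide 1524, 5.04 points, beside the low value without MNase given above. The mean TCR of these 372 nucleotides was 0.309%, 0.134% and 0.178% in 25S-preLSUs with MNase-rpL5, MNase-rpL27 and MNase-rpL35, against 0.323% without MNase, and 0.297%, 0.299% and 0.227% in 27SB-preLSUs, against 0.292%. In 25S-preLSUs MNase-rpL27 and MNase-rpL35 were thus at 0.417 and 0.551 times the mean without MNase there.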

How the data were processed

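The authors mapped random primer extension reads to the rDNA region. The submitters' notes name Bowtie2 (version not given in the sources used here) and the R64 and sacCer3 genomes. The deposited values are the TCR as a fraction and a noise estimate as a fraction, for 10000 positions and 8 libraries. No coverage is given, so depth is unknown, and no interval, floor or test is given with 1 library per condition.

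The TCR over 3 nucleotides was obtained by multiplying their chances of reading through and subtracting the result from 1. Windows within 2 nucleotides of the 25S rRNA 5′ end and of m1A645, m1A2142, m3U2634 and m3U2843 were left out. The domain, the sites, the lists and the rules were chosen with earlier results of these data known. Nucleotides were named if the study names them, if they were called, if they were among the 5 highest stops without MNase, if they had at least 5% in a stretch, or if 1 fusion was preferred. Alternatives changed the window, the minimum, the folds, the noise, the domain limits and the correction for no MNase. The site calling was tested on simulated data. Python 3.11.15, numpy 2.4.6, pandas 2.3.3 and matplotlib 3.10.9 were used.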

Additional observations from a re-analysis of the deposited data

Results flagged for a closer look

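At the window of 1566 and at nucleotide 1567, the fusions lay above the library without MNase in 25S-preLSUs and below it in 27SB-preLSUs. Over 3 nucleotides at 1566, the mean of the 3 fusions minus the library without MNase was 7.15 percentage points in 25S-preLSUs, where every fusion was above that library, and -3.61 points in 27SB-preLSUs, where every fusion was below it. At nucleotide 1567 alone the same difference was 5.84 points in 25S-preLSUs and -2.33 points in 27SB-preLSUs. The difference between the precursors was not tested, as each condition has 1 library.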

How the results depend on the processing

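Of the counts that answer a comparison, 66 values stayed within 1.5 times the main count under an alternative and 12 did not. Of the single values and differences, 217 moved, 47 did not, 8 passed the call only under the alternative, 11 lost it and 1 reversed. A single value counted as moved unless it was identical to the main value, and every alternative mean was counted as moved. The 217 largely follow from this rule and do not measure instability. The 2 sites of MNase-rpL5 in 25S-preLSUs became 0 with the single nucleotide, with a minimum of 20% and with folds over 10, and the 2 of MNase-rpL27 became 1 with a minimum of 20% and with folds over 10. The 1 site of MNase-rpL27 in 27SB-preLSUs became 2 with folds over 3. The 3 sites of MNase-rpL35 became 2 in 25S-preLSUs with a minimum of 20% and with folds over 10. In 27SB-preLSUs they became 2 with 2 neighbours on either side and with folds over 10. These changes of MNase-rpL35 are among the values within 1.5 times. Of the 15 comparisons between precursors at 5 sites, 1 was higher in 25S-preLSUs, and this became 3 with the single nucleotide and 7 after correction for no MNase. The 6 that were lower became 3 with the single nucleotide, 3 with 2 neighbours on either side and 0 at a ratio over 3. Without both stretches, 2 of the 6 MNase libraries had a mean above no MNase, and with limits 50 nucleotides wider 5 had. At A1558 with MNase-rpL35, the single nucleotide reversed the direction, with 25S-preLSUs 1.56 points above 27SB-preLSUs. The cause was not tested except where fewer neighbours enter the value. No paired analysis was possible because each condition has 1 library. The unknown depth limits every value, and values near the noise cannot be ranked.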
